A study of Mus musculus with 4 samples.

Results

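Light chain variable (V) gene usage was read from every gene of the count table whose symbol begins with Igkv or Iglv. These were 163 of the 55401 genes, chosen by symbol alone and not by any measured value. Of the 163, 160 were kappa V genes (Igkv) in 20 families, and 3 were lambda V genes (Iglv1, Iglv2 and Iglv3), each a family of its own. The GRCm38 annotation classes 103 of them as V genes and 60 as V pseudogenes.

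A light chain is assembled when a V gene is joined to a J segment in the DNA of a developing B cell, and the joined exon is then spliced to a constant (C) exon. In mice the kappa locus usually rearranges before the lambda locus, and most mature B cells carry a kappa chain. Kappa V genes lie over a long stretch of chromosome 6 in either orientation and can join by deletion or by inversion, and secondary rearrangement can replace a first joint with one from a V gene farther out and a J segment farther in. The V gene supplies most of the antigen-binding domain, so its use in a population of cells is a coarse view of the antibody repertoire.

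FOB cells are mature B cells that recirculate through the follicles, and they were sorted from spleen as B220+CD93-CD23highCD21low cells of 7-week-old C57BL/6 mice, and their poly(A) mRNA was sequenced. WT and *Hnrnpf* bKO mice were both Hnrnpf fl/fl, so that both carried floxed *Hnrnpf* alleles, and only the *Hnrnpf* bKO mice carried a Cre allele expressed in B cells. The paper describes the deletion as inefficient in early bone marrow B cells up to small pre-B cells, and as further advanced in immature B cells. Light chain genes are rearranged within these stages. There were 2 libraries per genotype, reported as a single experiment with no statement on pooling of mice, and p-values therefore measure only the spread between these libraries.

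*Hnrnpf*, the targeted gene, had a count of 5780 and 6634 in WT, against 1167 and 1194 in *Hnrnpf* bKO. Both *Hnrnpf* bKO libraries lay far below both WT libraries. Library totals were between 15698567 and 18908963 counts. The cells had the transcripts of mature B cells, with *Ms4a1* (CD20), *Ighd* and the sorting markers *Fcer2a* (CD23) and *Cr2* (CD21) each at genotype means between 716 and 3527 CPM (counts scaled to library size).

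The 3′ coding end of a V gene carries the codon of the conserved cysteine that precedes the third complementarity-determining region, and the joint to J lies just behind it. These ends are shown for the genes that differed between genotypes and for Iglv3, the most used gene, but not for the pseudogene Igkv2-107, which has no annotated coding sequence. They are the last 60 coding bases of the GENCODE transcripts of GRCm38, 5′ to 3′, with capitals from the cysteine codon to the end of the V coding sequence.
Iglv3 (chr16:19241207-19241266, minus strand): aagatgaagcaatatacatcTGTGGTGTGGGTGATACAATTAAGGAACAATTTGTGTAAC
Iglv1 (chr16:19085017-19085076, minus strand): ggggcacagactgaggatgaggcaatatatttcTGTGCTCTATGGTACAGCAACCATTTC
Iglv2 (chr16:19260401-19260460, minus strand): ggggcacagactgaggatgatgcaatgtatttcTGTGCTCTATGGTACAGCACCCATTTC
Igkv15-103 (chr6:68437866-68437925, plus strand): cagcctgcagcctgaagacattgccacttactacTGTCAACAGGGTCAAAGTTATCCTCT
Igkv19-93 (chr6:68736297-68736356, minus strand): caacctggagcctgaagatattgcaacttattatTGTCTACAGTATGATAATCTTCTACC
Igkv1-135 (chr6:67610449-67610508, plus strand): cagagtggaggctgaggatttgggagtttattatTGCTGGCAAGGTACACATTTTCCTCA
Igkv4-91 (chr6:68768555-68768614, minus strand): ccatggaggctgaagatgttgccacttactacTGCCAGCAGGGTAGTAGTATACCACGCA
Igkv12-44 (chr6:69814631-69814690, minus strand): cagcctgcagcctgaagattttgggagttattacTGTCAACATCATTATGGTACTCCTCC

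Iglv1 and Iglv2 were 97.0% identical over 364 aligned transcript bases, and their longest identical run was 104 bases. The last 150 coding bases of both are shown because their counts depend on telling them apart. Capitals mark the 5 bases that differ.
Iglv1 (chr16:19085017-19085166, minus strand): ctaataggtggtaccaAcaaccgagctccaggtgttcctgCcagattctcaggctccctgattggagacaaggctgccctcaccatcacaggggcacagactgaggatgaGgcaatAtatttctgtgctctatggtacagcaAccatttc
Iglv2 (chr16:19260401-19260550, minus strand): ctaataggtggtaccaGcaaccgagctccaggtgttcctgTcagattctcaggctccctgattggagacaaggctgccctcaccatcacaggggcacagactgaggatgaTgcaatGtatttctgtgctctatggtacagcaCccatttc
Iglv3 was only 62.0% and 62.7% identical to Iglv1 and Iglv2 where it could be aligned, over 142 bases. Of the 163 genes, 65 were at least 95% identical to their nearest relative among the 163. These 65 took between 55.6% and 57.0% of the V counts of a library. The nearest pairs at 98% or more comprised 10 genes with between 4.40% and 5.29% of V counts. Counts of such genes are uncertain where reads could be split between them.

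The V genes together had 30272 and 34513 counts in WT, against 30704 and 35755 in *Hnrnpf* bKO. Usage was spread over many genes in every library. Between 128 and 132 genes had at least 1 count, 16 genes were enough to reach 50% of V counts in each of the 4 libraries. The 10 most used genes of a library held 36.9% and 37.5% in WT, against 38.2% and 38.9% in *Hnrnpf* bKO, without overlap. The inverse Simpson index, the number of equally used genes that would give the same evenness, was 44.1 and 43.8 in WT, against 44.1 and 43.1 in *Hnrnpf* bKO, so the genotypes overlapped. All 103 genes annotated as V genes had counts, while 24 of the 60 pseudogenes had none in any library. A count of 0 allows a share of up to 0.00839% to 0.00991% of V counts, depending on the library. Pseudogenes took between 1.07% and 1.31% of V counts. Counts over a V exon do not separate productive from nonproductive or unrearranged transcripts.

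Levels were compared between genes per length, in FPKM as deposited. Iglv3 was the highest in every library, with 304 and 311 FPKM in WT, against 310 and 320 in *Hnrnpf* bKO. Igkv10-96 followed at 238 and 225 in WT, against 255 and 279 in *Hnrnpf* bKO, then Igkv6-15 at 206 and 209 in WT, against 216 and 212 in *Hnrnpf* bKO. The ranges of these 3 genes over the libraries did not overlap. Next by mean level, Iglv1 had 165 FPKM in each WT library and 216 and 221 in *Hnrnpf* bKO, a range that overlapped that of Igkv6-15. It lay below Igkv1-117 (179 and 181 in WT, 185 and 181 in *Hnrnpf* bKO) in WT and above it in *Hnrnpf* bKO. The next 6 by mean level were Igkv1-117, Igkv1-135, Igkv19-93, Igkv17-127, Igkv6-23 and Igkv1-110, whose mean levels ran from 182 to 131 FPKM. Their libraries overlapped between neighbours in that order.

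**Figure D1:**
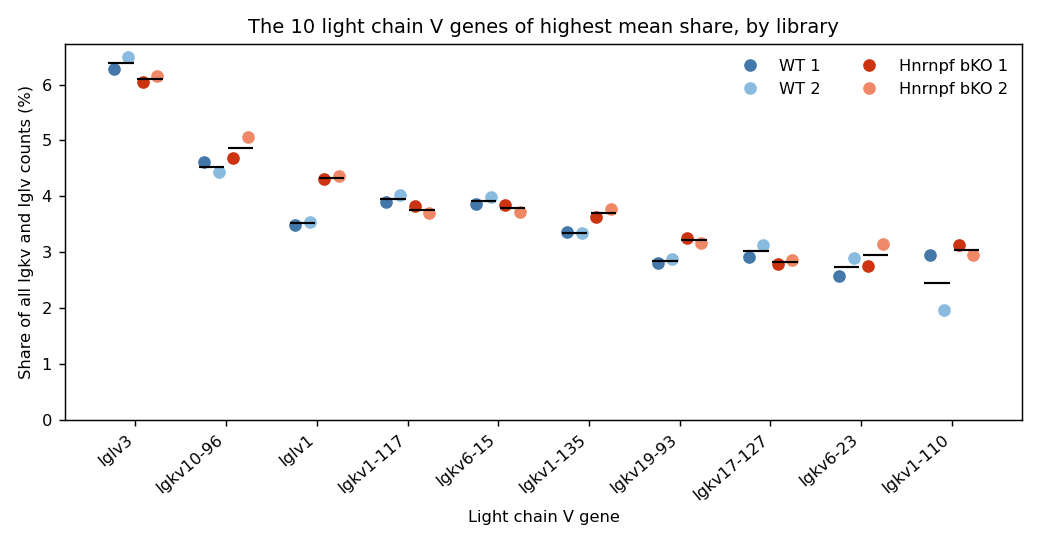
Share of all Igkv and Iglv counts (%, vertical axis) of the 10 light chain V genes with the highest mean share, in each WT and Hnrnpf bKO library (points), with the mean of each genotype (bar, n = 2). Iglv3 is highest in all 4 libraries, Iglv1 is near 3.5% in WT and above 4.3% in Hnrnpf bKO, and 1 WT library lies apart for Igkv1-110.

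The design allows light chain V use to be compared between the genotypes. In bulk RNA, fewer cells that use a V gene and less RNA per cell cannot be told apart. The V total was 0.185% and 0.183% of all counts in WT, against 0.196% and 0.198% in *Hnrnpf* bKO. The libraries did not overlap, but the log2 fold change of 0.11 (standard error 0.04) did not pass the test (adjusted p = 0.178, edgeR, where 6.93% of the 14019 features of that fit did).

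Of the 163 genes, 105 passed the filter on low counts, 96 V genes and 9 pseudogenes, and the other 58 were not tested. Of the 105, 8 passed an adjusted p of 0.05 in the quasi-likelihood test of edgeR, adjusted by Benjamini-Hochberg over all genes tested (7.62%), beside 6.97% of all 14123 genes tested. The share of V genes that differed was thus near the background. Higher in *Hnrnpf* bKO were 7 genes, Iglv1, Iglv2, Igkv15-103, Igkv2-107, Igkv4-91, Igkv19-93 and Igkv1-135, where 4.15% of all genes were higher. Igkv12-44 alone was lower, where 2.83% of all genes were lower. None of the 105 changed by 2-fold or more at that adjusted p, nor at an unadjusted p under 0.05, in edgeR, and none did with DESeq2 or limma, while 0.899% of all genes tested did with edgeR. An unadjusted p under 0.05 was found for 24 of the 105. The share of all genes tested at that p is not given here, so this count was not read as an excess. CPM of the genotypes did not overlap for 57 of the 105 (54.3%), beside 50.1% of all genes tested. Of these 57, 45 were higher in *Hnrnpf* bKO, in which the V total also lay higher. The same split was not taken over all genes tested. The median log2 fold change was 0.11 over the 105 genes and −0.0023 over all genes tested.

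This count moved with the libraries and the scaling. It was 7 without WT replicate 1, 4 without WT replicate 2, 4 without *Hnrnpf* bKO replicate 1 and 5 without *Hnrnpf* bKO replicate 2. Each library was also scaled to its V counts, a setting added after the data were seen. The median log2 fold change moved to −0.11 over all genes tested and to −0.0017 over the 105 genes. Then 9 of the 105 passed, 4 higher and 5 lower, beside 13.5% of all genes. The 4 were Iglv1, Iglv2, Igkv15-103 and Igkv2-107, and the 5 were Igkv12-44, Igkv12-46, Igkv3-4, Igkv3-5 and Igkv6-32, the last named after its values were seen.

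**Figure D2:**
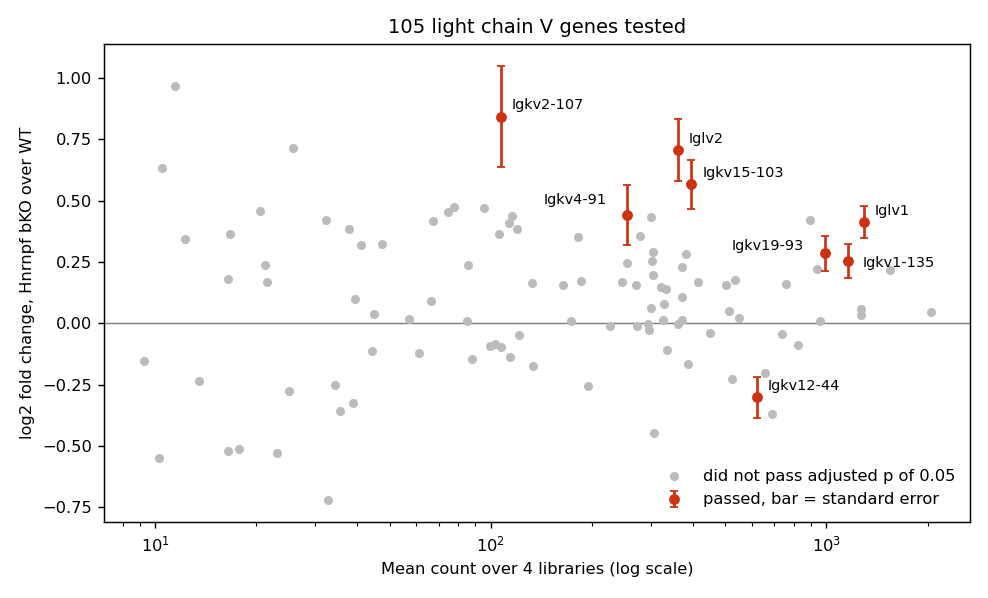
log2 fold change of Hnrnpf bKO over WT (vertical axis) against mean count over the 4 libraries (horizontal axis, log scale) for the 105 light chain V genes tested, with the 8 genes past an adjusted p of 0.05 in red (bar = standard error). The 7 higher genes lie between 0.25 and 0.84 and Igkv12-44 lies at −0.30, all short of a 2-fold change.

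The lambda V genes did not move as a group. Iglv1 and Iglv2 rose in *Hnrnpf* bKO while Iglv3 did not pass the test. On chromosome 16 (GRCm38), Iglv2 (19260401 to 19260859) and Iglv3 (19241207 to 19241690) lie upstream of Iglc2 on the minus strand, and Iglv1 (19085017 to 19085500) lies upstream of Iglj3, Iglc3, Iglj1 and Iglc1. Iglv1 took 3.49% and 3.53% of V counts in WT, against 4.31% and 4.36% in *Hnrnpf* bKO. Neither genotype spread by more than 0.06 percentage points, and the Wilson intervals for counting error, up to 3.73% in WT and from 4.09% in *Hnrnpf* bKO, did not meet. Its level was 1.33-fold higher (log2 fold change 0.41 with a standard error of 0.07, adjusted p = 0.00220, edgeR) and it passed under all 12 alternatives. An annotated antisense gene, 2010309G21Rik, overlaps Iglv1 on the other strand and had 154 and 167 counts in WT, against 179 and 203 in *Hnrnpf* bKO. Without a stated strand setting, reads of Iglv1 and of this gene cannot be told apart.

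Iglv2 took 0.796% and 0.942% of V counts in WT, against 1.18% and 1.44% in *Hnrnpf* bKO. Every *Hnrnpf* bKO library lay above every WT library, though each genotype spread by more than Iglv1 did. The level was 1.63-fold higher (log2 fold change 0.71 with a standard error of 0.13, adjusted p = 0.00534, edgeR). It passed under 10 of 12 alternatives, the exceptions being limma on log2(FPKM + 0.1) and log2(FPKM + 1), where the adjusted p was 0.106 in each. Iglv3 took 6.27% and 6.50% in WT, against 6.04% and 6.16% in *Hnrnpf* bKO. Its share was lower in *Hnrnpf* bKO while its scaled level was not (log2 fold change 0.04 with a standard error of 0.06, adjusted p = 0.714, edgeR; −0.07 when scaled to V counts). The counts of Iglv1 for each count of Iglv3 were 0.557 and 0.544 in WT, against 0.714 and 0.708 in *Hnrnpf* bKO, and those of Iglv2 were 0.127 and 0.145 in WT, against 0.196 and 0.234 in *Hnrnpf* bKO.

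All lambda V genes together made 10.6% and 10.98% of V counts in WT, against 11.5% and 12.0% in *Hnrnpf* bKO, or 10.8% ± 0.296 and 11.7% ± 0.306 (mean ± SD, n = 2 each). The difference of 0.979 percentage points left no overlap, but an exact permutation test over 2 and 2 libraries cannot go below its two-sided p of 0.333. Wilson intervals ran from 10.2% to 11.3% over the WT libraries and from 11.2% to 12.3% over the *Hnrnpf* bKO libraries, so the intervals of the genotypes met. As a summed row, lambda V counts passed the test (log2 fold change 0.23 with a standard error of 0.05, adjusted p = 0.0170, edgeR) and kappa V counts did not (0.09, standard error 0.04, adjusted p = 0.265), where 6.95% of 14020 features passed. The lambda call was lost without WT replicate 1 (adjusted p = 0.0603), without *Hnrnpf* bKO replicate 2 (adjusted p = 0.105) and when scaled to V counts (adjusted p = 0.127).

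The lambda constant genes gave another picture. Iglc counts were 23.2% and 22.8% of all Igkc and Iglc counts in WT, against 23.1% and 22.9% in *Hnrnpf* bKO, and the genotypes overlapped. Within lambda, Iglc1 made 10.6% and 11.1% of Iglc counts in WT, against 12.8% and 13.8% in *Hnrnpf* bKO. It alone of the 13 light chain J and C genes tested passed (7.69%, near the 6.97% of all genes tested; log2 fold change 0.32 with a standard error of 0.08, adjusted p = 0.0223, edgeR). Iglc2 made 60.8% and 61.8% in WT, against 55.5% and 56.5% in *Hnrnpf* bKO (log2 fold change −0.11 with a standard error of 0.05, adjusted p = 0.247), and Iglc3 made 28.4% and 26.8% in WT, against 31.5% and 29.4% in *Hnrnpf* bKO (0.16, standard error 0.05, adjusted p = 0.0936). So Iglc1 and Iglc3 took more of the Iglc counts in each *Hnrnpf* bKO library than in either WT library, and Iglc2 took less. Iglc1 and Iglc3 lie downstream of Iglv1, but also of Iglv2 and Iglv3. Iglc2 lies downstream of Iglv2, which rose, and of Iglv3, which did not pass the test. Iglc2 and Iglc3 were 95.1% identical over 451 aligned bases, so reads could be split between them. Iglv counts for each Iglc count were 0.306 and 0.302 in WT, against 0.351 and 0.355 in *Hnrnpf* bKO.

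**Figure D3:**
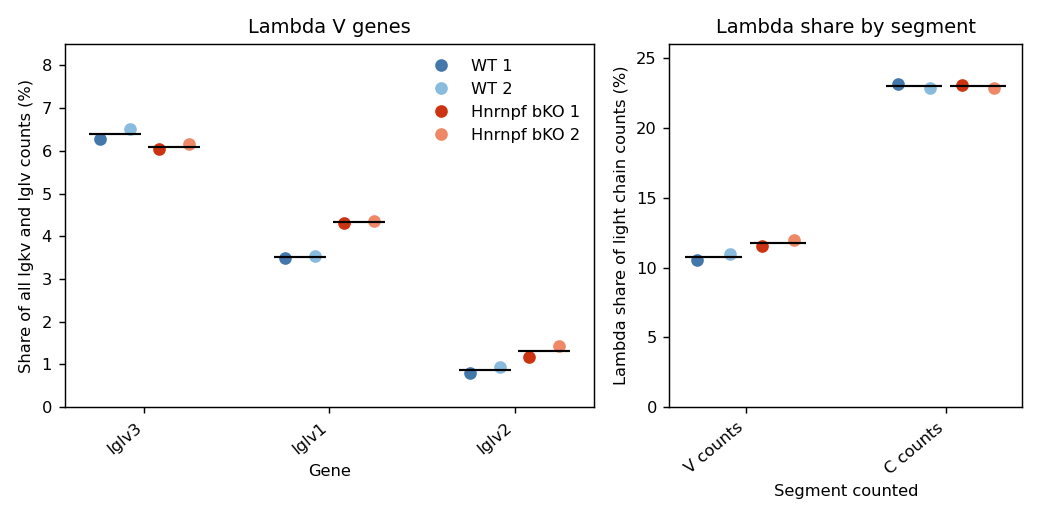
Left, share of all Igkv and Iglv counts (%) of Iglv3, Iglv1 and Iglv2 in each library. Right, the lambda share of V counts (Iglv of Igkv and Iglv) and of C counts (Iglc of Igkc and Iglc) in each library (%). Points are libraries and bars are genotype means (n = 2). Iglv1 and Iglv2 are higher in both Hnrnpf bKO libraries, Iglv3 is slightly lower, and the lambda share of C counts is near 23% in all 4.

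Among the kappa genes, Igkv15-103 (chr6:68437440-68437925, plus strand, 2285 kb from Igkj1) gave the most stable difference. It had 296 and 362 counts in WT, against 423 and 502 in *Hnrnpf* bKO, or 0.978% and 1.05% of V counts in WT, against 1.38% and 1.40% in *Hnrnpf* bKO. Both *Hnrnpf* bKO libraries lay above both WT libraries by more than the spread within a genotype. The level was 1.48-fold higher (log2 fold change 0.57 with a standard error of 0.10, adjusted p = 0.00454, edgeR), and the call was kept under all 12 alternatives, with adjusted p up to 0.0497. Its nearest relative, Igkv15-97, was 81.0% identical.

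The other kappa calls were weaker. Igkv19-93 took 2.80% and 2.88% of V counts in WT, against 3.26% and 3.16% in *Hnrnpf* bKO (log2 fold change 0.28 with a standard error of 0.07, adjusted p = 0.0306, edgeR). Igkv1-135 (chr6:67609713-67610508), the outermost of the much used kappa genes at 3112 kb from Igkj1, took 3.36% and 3.34% in WT, against 3.62% and 3.77% in *Hnrnpf* bKO (log2 fold change 0.25 with a standard error of 0.07, adjusted p = 0.0472). Igkv4-91 took 0.661% and 0.707% in WT, against 0.870% and 0.853% in *Hnrnpf* bKO (log2 fold change 0.44 with a standard error of 0.12, adjusted p = 0.0469). In these 3 genes each *Hnrnpf* bKO share lay above each WT share. Igkv12-44 went the other way, with 2.12% and 2.20% in WT, against 1.60% and 1.65% in *Hnrnpf* bKO (log2 fold change −0.30 with a standard error of 0.08, adjusted p = 0.0471), again with no overlap. Each of these 4 genes lost its call when any 1 library was left out, with DESeq2, with the replicate number as a block and with limma at either pseudocount, and Igkv19-93, Igkv1-135 and Igkv4-91 also when scaled to V counts. Over all 12 alternatives their adjusted p ran up to 0.130 for Igkv19-93, 0.236 for Igkv1-135, 0.256 for Igkv4-91 and 0.226 for Igkv12-44.

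Igkv2-107, an annotated pseudogene, had 77 and 82 counts in WT, against 142 and 128 in *Hnrnpf* bKO. Its low counts did not overlap between genotypes (log2 fold change 0.84 with a standard error of 0.21, adjusted p = 0.0270, edgeR). It passed under 6 of 12 alternatives. The call was lost without WT replicate 2 (adjusted p = 0.0644), without *Hnrnpf* bKO replicate 1 (adjusted p = 0.186), with DESeq2 (adjusted p = 0.103), with the replicate block (adjusted p = 0.0503) and with limma on log2(FPKM + 0.1) and log2(FPKM + 1) (adjusted p = 0.0851 and 0.0887). Without *Hnrnpf* bKO replicate 2 the log2 fold change was 1.01.

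The largest log2 fold changes among genes whose mean reached 100 counts belonged, on the higher side, to Igkv2-107, Iglv2, Igkv15-103, Igkv4-91 and Igkv4-58, of which Igkv4-58 did not pass (log2 fold change 0.44 at an adjusted p = 0.226, edgeR). On the lower side they belonged to Igkv3-5 (−0.45, adjusted p = 0.0631), Igkv3-4 (−0.37, adjusted p = 0.0660), Igkv12-44, Igkv4-57-1 (−0.26, adjusted p = 0.337) and Igkv12-46 (−0.23, adjusted p = 0.163). Igkv3-5 was 98.3% identical to Igkv3-10, and Igkv12-44 was 95.7% identical to Igkv12-41, so reads could be split within each pair. Igkv3-5 and Igkv3-4 are neighbours, 58.7 and 50.2 kb from Igkj1. Igkv3-4 took 2.10% and 2.77% of V counts in WT, against 1.83% and 1.66% in *Hnrnpf* bKO, and Igkv3-5 took 1.02% and 1.202% in WT, against 0.850% and 0.668% in *Hnrnpf* bKO. Neither gene overlapped between genotypes. With 1 library left out, the log2 fold change of Igkv3-4 lay between −0.54 (without WT replicate 1) and −0.17 (without WT replicate 2). That of Igkv3-5 lay between −0.61 (without *Hnrnpf* bKO replicate 1) and −0.29 (without *Hnrnpf* bKO replicate 2).

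Most of the top genes by use did not pass the test. The log2 fold changes were 0.22 for Igkv10-96 (adjusted p = 0.0813, edgeR), 0.22 for Igkv6-23 (adjusted p = 0.181), 0.06 for Igkv6-15 (adjusted p = 0.679), 0.04 for Igkv1-117 (adjusted p = 0.817) and 0.01 for Igkv17-127 (adjusted p = 0.969), the last 3 with signs that turned when scaled to V counts. The standard error had a median of 0.12 for the 67 genes whose mean reached 100 counts and of 0.35 for the 38 tested genes under it, which limits what could be seen in rarely used genes.

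Summed by family, 5 of the 21 families tested passed, beside 6.95% of the 14039 features of that fit, and all 5 were higher in *Hnrnpf* bKO. These were Iglv1, Iglv2, Igkv15, Igkv19 and Igkv2, and all but Igkv2 rested on 1 tested gene already described. The Igkv2 family had 729 and 871 counts in WT, against 964 and 1050 in *Hnrnpf* bKO, or 2.41% and 2.52% of V counts in WT, against 3.14% and 2.94% in *Hnrnpf* bKO. Its 2 genotypes did not overlap (log2 fold change 0.41 with a standard error of 0.08, adjusted p = 0.00610, edgeR), and it passed with every library left out in turn. Its members, other than Igkv2-107 named after their values were seen, mostly had the same sign. The log2 fold changes were 0.28 for Igkv2-109, 0.43 for Igkv2-137, 0.47 for Igkv2-112 and −0.24 for the pseudogene Igkv2-116, none past the test (adjusted p between 0.0560 and 0.846). Igkv2-137 overlaps the long noncoding gene Gm42889 on the same strand, so its reads could not be told apart from those of that gene.

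The most used families were Igkv6 with 14.9% and 14.997% of V counts in WT, against 14.3% and 14.4% in *Hnrnpf* bKO, and Igkv4 with 12.6% in each WT library and 13.0% and 12.6% in *Hnrnpf* bKO. Igkv4 is the family with the most genes, 33 in all. Igkv1 followed with 11.2% and 10.2% in WT, against 11.4% and 11.2% in *Hnrnpf* bKO, then Igkv3 with 8.29% and 9.54% in WT, against 7.77% and 6.99% in *Hnrnpf* bKO, and Igkv8 with 6.31% and 5.93% in WT, against 6.26% and 6.53% in *Hnrnpf* bKO. None of these 5 passed the test. The top gene by counts was Igkv6-15 in Igkv6, Igkv4-59 in Igkv4, Igkv1-117 in Igkv1, Igkv3-4 in Igkv3 and Igkv8-24 in Igkv8. Igkv4-59 took 1.69% and 1.51% in WT, against 1.52% and 1.54% in *Hnrnpf* bKO, and Igkv8-24 took 1.13% and 1.05% in WT, against 1.23% and 1.138% in *Hnrnpf* bKO. Igkv12, the family of Igkv12-44 and Igkv12-46, took 5.70% and 5.99% in WT, against 4.69% and 4.81% in *Hnrnpf* bKO (log2 fold change −0.19 with a standard error of 0.06, adjusted p = 0.0755).

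**Figure D4:**
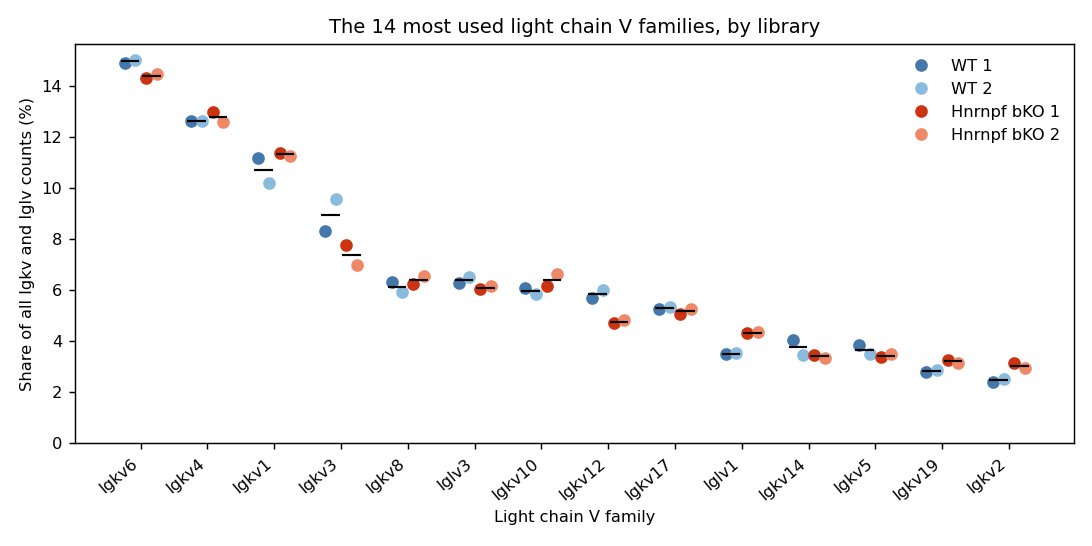
Share of all Igkv and Iglv counts (%, vertical axis) of the 14 most used light chain V families in each library (points), with genotype means (bars, n = 2). Igkv6 and Igkv4 lead in all 4 libraries. Iglv1, Igkv19 and Igkv2 lie higher in Hnrnpf bKO and passed an adjusted p of 0.05 (edgeR). Igkv3 and Igkv12 lie lower and did not pass (adjusted p = 0.176 and 0.0755). Other plotted families whose genotypes do not overlap, such as Igkv6 (lower) and Igkv1 (higher), did not pass either.

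The kappa genes span 18.4 to 3166 kb from Igkj1, the first J segment, and were set out in windows of 500 kb, as a description without a test. The nearest window, with 24 genes, took 21.8% and 23.3% of V counts in WT, against 20.8% and 20.5% in *Hnrnpf* bKO. The next, from 500 to 1000 kb, took 16.4% and 15.6% in WT, against 14.8% and 14.9% in *Hnrnpf* bKO. In both windows each *Hnrnpf* bKO library lay below each WT library. From 1500 to 2000 kb the shares were 8.01% and 8.29% in WT, against 8.72% and 8.63% in *Hnrnpf* bKO, from 2000 to 2500 kb they were 16.3% and 14.6% against 16.9% and 17.1%, and beyond 3000 kb, where Igkv1-135 and Igkv2-137 lie, they were 4.08% and 4.23% against 4.63% and 4.79%. In these 3 windows each *Hnrnpf* bKO library lay above each WT library. The order of shares was not a plain gradient, since the window from 1000 to 1500 kb overlapped between genotypes (9.65% to 9.96% in WT, 9.62% to 9.79% in *Hnrnpf* bKO) and that from 2500 to 3000 kb was lower in *Hnrnpf* bKO (12.9% and 13.3% in WT, 12.8% and 12.5% in *Hnrnpf* bKO). The median log2 fold change of tested genes was 0.03 in the nearest window (10 of 18 above 0). From 500 to 1000 kb it was 0.10 (11 of 19 above 0), although the share of that window was lower. It was 0.12 from 1000 to 1500 kb (13 of 18) and 0.20 from 1500 to 2000 kb (11 of 16). Farther out it was 0.25 from 2000 to 2500 kb (12 of 13) and −0.11 from 2500 to 3000 kb (7 of 16). Beyond 3000 kb it was 0.34 (2 of 2).

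**Figure D5:**
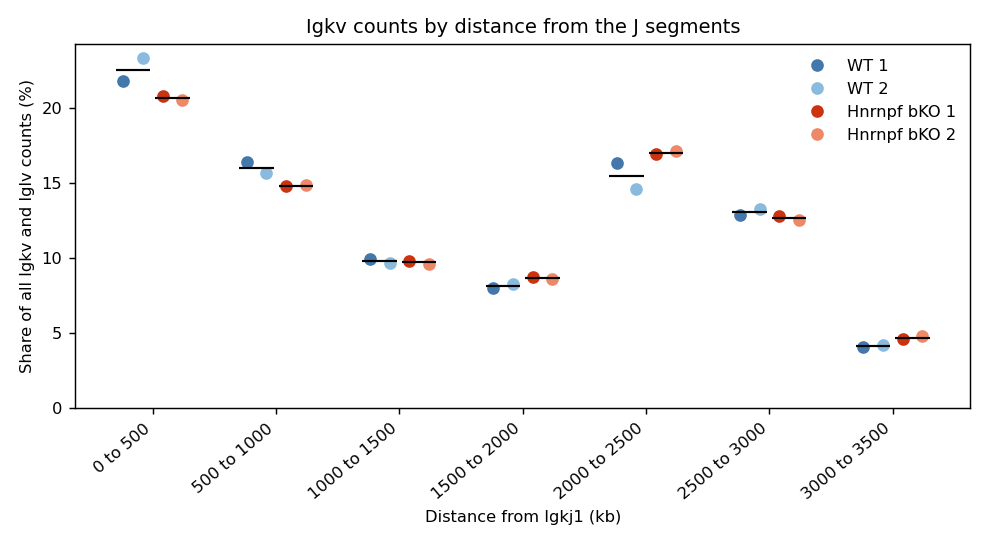
Share of all Igkv and Iglv counts (%, vertical axis) of kappa V genes in windows of 500 kb by distance from Igkj1 (horizontal axis) in each library (points), with genotype means (bars, n = 2). The 2 nearest windows lie lower in both Hnrnpf bKO libraries, and the windows from 1500 to 2500 kb and beyond 3000 kb lie higher.

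By orientation, the 85 kappa genes that point opposite to the J segments, which join by inversion, took between 48.1% and 49.2% of V counts, and the 75 that point the same way took between 39.4% and 40.5%. The genotypes overlapped in each class. Igkj5 and Igkj4 drew the most counts of the kappa J segments and Igkj1 the fewest in all 4 libraries. Igkj3 lay above Igkj2 in WT replicate 1 and below it in the other 3. Counts over a J exon do not separate joined from unjoined segments, so they were not read as J use. Igkj5 led with 30.1% in each WT library and 32.6% and 28.8% in *Hnrnpf* bKO of all Igkj counts, and Igkj1 came last with 5.76% and 5.86% in WT, against 4.92% and 5.10% in *Hnrnpf* bKO. The share of Igkj4 was 23.95% and 23.94% in WT, against 24.03% and 24.5% in *Hnrnpf* bKO. Shares of Igkj1 and Igkj4 did not overlap between genotypes and those of the other 3 segments did. The level of Igkj1 did not pass the test (log2 fold change −0.28 with a standard error of 0.15, adjusted p = 0.307, edgeR). Igkj exons are 38 to 43 bases long and drew between 2863 and 3667 counts in all per library, fewer than V genes did. Igkc itself had 34663 and 42477 counts in WT, against 33545 and 40582 in *Hnrnpf* bKO (log2 fold change 0.02 at an adjusted p = 0.886).

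Replicates of a genotype differed in V use by more than counting error. The share of V counts that would have to move from gene to gene to turn 1 library into the other was 5.02 percentage points for the WT pair and 3.83 for the *Hnrnpf* bKO pair. Across genotypes it was between 6.15 and 7.30 over the 4 pairs, above both. The chi-square per degree of freedom was 3.21 and 2.07 within the genotypes and between 4.07 and 6.31 across them, where counting error alone gives about 1. For heavy chain V genes the same distances were 5.47 and 5.58 within and between 5.60 and 6.21 across. The biological coefficient of variation had a median of 7.29% over the 67 light chain V genes whose mean reached 100 counts, against 5.60% over 9875 tested genes of that level.

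Some genes differed widely between replicates. Igkv1-110 took 2.95% and 1.96% in the WT libraries and 3.13% and 2.95% in *Hnrnpf* bKO, so WT replicate 2 stood apart from the other 3. Its log2 fold change of 0.42 did not pass (standard error 0.14, adjusted p = 0.0996, edgeR). Without WT replicate 1 it was 0.76 and passed (adjusted p = 4.96e-06), without *Hnrnpf* bKO replicate 2 it was 0.45 and passed (adjusted p = 0.0348), and without WT replicate 2 it was 0.14 (adjusted p = 0.456). Igkv1-110 is 97.5% identical to Igkv1-117, which did not show that spread. The other 4 genes with the largest ratios between replicates were Igkv4-63 (0.235% and 0.348% in WT), Igkv4-81 (0.268% and 0.388% in WT), Igkv3-4 and Igkv4-50 (0.700% and 0.512% in *Hnrnpf* bKO).

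The lymphoid-specific genes of V(D)J recombination were nearly silent in these cells, while DNA end joining genes were expressed. *Rag1* and *Rag2*, which encode the recombinase, had at most 1 count in a library, and *Dntt*, the terminal transferase, had at most 5. Of 14 V(D)J recombination genes, 11 were tested and 1 passed (9.09%, beside 6.97% of all genes tested), *Polm*, a polymerase of end joining, which fell from 113 ± 4.62 to 90.1 ± 8.49 CPM (mean ± SD, n = 2 each, log2 fold change −0.33, adjusted p = 0.0135, edgeR). Their median log2 fold change was −0.03. Of the 4 surrogate light chain genes, *Vpreb2* and *Igll1* had no counts and *Vpreb1* at most 8, and *Vpreb3*, the 1 tested, did not pass (log2 fold change −0.10 at an adjusted p = 0.477). Of 16 transcription and chromatin factors known to act on light chain loci, 3 passed (18.8%, beside 6.97% of all genes tested) and all were lower, where 2.83% of all genes were. They were *Spib* (−0.24, adjusted p = 0.00828), *Pax5* (−0.20, adjusted p = 0.0261) and *Ebf1* (−0.24, adjusted p = 0.0421), while *Irf4* (−0.11, adjusted p = 0.248) and *Spi1* (−0.01, adjusted p = 0.961) did not pass.

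Heavy chain V genes were also compared, as the other V genes of the receptor. Of 185, 103 were tested and 2 passed (1.94%, beside 6.97% of all genes tested), *Ighv8-6* (counts of 30 and 17 in WT, against 69 and 66 in *Hnrnpf* bKO) and *Ighv1-19* (248 and 285, against 318 and 356), both higher. Their median log2 fold change was 0.13, next to 0.11 for the light chain V genes.

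Markers of other B cell subsets, whose V use can differ, also moved in part, and their shares past the test are given beside 6.97% of all genes. Of 5 tested B-1 cell genes, 1 was lower (20%), *Spn* (CD43, log2 fold change −0.43, adjusted p = 0.0144, edgeR), and the list summed to 62.6 and 79.0 CPM in WT, against 55.4 and 60.3 in *Hnrnpf* bKO. Of 6 marginal zone genes, 4 passed (66.7%), with *Cd1d1* and *Plac8* higher and *S1pr3* and *Dtx1* lower, and with sums between 594 and 607 CPM in all 4 libraries. *Cd93*, which the sort gated out, rose from 10.04 ± 2.28 CPM in WT to 18.2 ± 2.198 in *Hnrnpf* bKO (mean ± SD, n = 2 each) and was the 1 of 3 tested transitional and immature B cell genes to pass (33.3%), while *Rag2* was at 0. That list as a whole had a median log2 fold change of −0.10 and summed to 423 and 430 CPM in WT, against 390 and 417 in *Hnrnpf* bKO. Plasma cells make far more light chain mRNA per cell than FOB cells. Of 9 tested plasma cell genes *Txndc5* alone passed (11.1%) and was lower, and the sums were 647 and 694 CPM in WT, against 634 and 606 in *Hnrnpf* bKO. *Jchain* had 60 and 240 counts in WT, against 175 and 161 in *Hnrnpf* bKO. None of 5 germinal center and 8 T cell genes passed. In the myeloid list of 7 genes *S100a8* and *S100a9* were higher (28.6%), with the list at 23.9 and 28.9 CPM in WT, against 29.4 and 40.5 in *Hnrnpf* bKO. The part of these cells in the V gene differences was not tested.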

How the data were processed

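Sorted FOB cells of 2 WT and 2 *Hnrnpf* bKO samples gave the poly(A) mRNA libraries, taken with the genotype and number of their labels. The authors trimmed paired-end reads with Cutadapt 1.9.1, aligned them to GRCm38 with HISAT2 2.0.1 and counted reads per gene with HTSeq 0.6.1. The strand setting, the treatment of multiply aligned reads and the annotation release are not given in the sources used here. The deposited counts are whole numbers without normalization. For the deposited FPKM the authors divided those counts by exonic gene size and library total. The authors' splicing table holds their own comparison (FDR and inclusion level differences) and was not used here.

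V shares are percentages of the summed Igkv and Iglv counts of a library. Counts were compared with edgeR 4.0.16 in R 4.3.3 (TMM, filterByExpr, quasi-likelihood F test, Benjamini-Hochberg adjustment over all genes tested), and the standard error is the log2 fold change divided by the root of F. Sums by family, chain and all V genes each replaced the member rows in separate fits. A call with a fold change required at least 2-fold. Alternatives were DESeq2 1.42.0, RLE size factors, other filters, limma-trend (3.58.1) with log2(FPKM + 0.1) or log2(FPKM + 1), a block for the replicate number, leaving out each library, and scaling to V counts, added after the data were seen. The edgeR steps were tested on simulated data, with 2-fold changes in genes whose mean reached 100 counts and the same dispersion for every gene. That test did not cover smaller changes or changes in genes of lower mean. Wilson intervals (95%) and the limits for a count of 0 cover counting error only, since reads of PCR copies carry no molecular identifiers. Sequences came from GENCODE M21 transcripts of GRCm38, compared with blastn 2.17.0. Exact permutation tests were run with scipy 1.17.1.

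Named genes were every Iglv gene, the 10 highest mean shares, all past the adjusted p, the 5 largest rises, falls and replicate ratios among genes whose mean reached 100 counts, and the top gene of the 5 most used families. The members and lists were chosen with earlier results of these data known. The Cre allele is not described further here.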

Additional observations from a re-analysis of the deposited data

How the results depend on the processing

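The count of V genes past an adjusted p of 0.05 was 8. It was 3 with DESeq2, 3 with the replicate block, 13 with no filter on low counts, 2 with limma on log2(FPKM + 0.1) and 2 with limma on log2(FPKM + 1), and between 4 and 7 with 1 library left out. Iglv1 and Igkv15-103 were in every one of these sets. The 0 genes with a fold change of at least 2 became 2 at a fold change of at least 1.5, and were between 0 and 1 with 1 library left out. The family count stayed between 4 and 7 over all alternatives. The lambda V sum kept its sign, with log2 fold changes between 0.19 and 0.28 when 1 library was left out and 0.13 when scaled to V counts, and the V total did not pass under any alternative. The lambda share of C counts differed by −0.000508 percentage points, against 0.979 for V counts, which lay between 0.763 and 1.195 with 1 library left out.

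Signs turned for genes near 0. Scaled to V counts, the log2 fold change was −0.0159 for the kappa sum, −0.0659 for Iglv3, −0.0748 for Igkv1-117, −0.0527 for Igkv6-15, −0.102 for Igkv17-127 and −0.0594 for Igkv4-59. With 1 library left out, that of Igkv17-127 lay between −0.0249 and 0.0486 and that of Igkv4-59 between −0.0415 and 0.149. With limma it was −0.0031 for Igkv17-127 at either pseudocount. The cause of the changes between tests was not tested. Same-numbered libraries did not deviate together (r = −0.09 over 14123 genes, n = 2 pairs), so the replicate numbers were not taken as a pairing. Depth limits rarely used V genes, and 58 of 163 were too low to test.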
